A study of Homo sapiens with 40 samples.

Results

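The 10 genes described here code for enzymes of cysteine, taurine and methionine metabolism and for the taurine transporter: CDO1, CSAD, ADO, SLC6A6, GOT1, CTH, CBS, MAT1A, BHMT and GNMT. They were chosen by name, as 10 of the 56568 gene names in the deposited tables, and all 10 were above 0 in all 40 libraries. The cells were HepaRG (HPR 116), a human hepatic cell line that differentiates in culture into hepatocyte-like and biliary-like cells. All groups were kept in the test medium with serum and DMSO from day 8 to day 14. Each of 8 groups held 5 libraries: a solvent control, the polychlorinated biphenyl PCB 126 in 3 concentrations (100 pM, 10 nM and 1 µM), the herbicide Roundup at 10 µg/L, and its active ingredient glyphosate alone (10 µg/L, 1 mg/L and 0.1 g/L). PCB 126 binds and activates the aryl hydrocarbon receptor (AhR), as dioxin does. The labels do not say whether the 5 libraries of a group came from separate cultures, so the p-values measure the spread between libraries, which may be technical.

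Sulfur enters this pathway as methionine. MAT1A, the methionine adenosyltransferase of differentiated hepatocytes, makes S-adenosylmethionine, GNMT consumes it while methylating glycine, and BHMT returns homocysteine to methionine with betaine as methyl donor. CBS and CTH form the transsulfuration route that turns homocysteine into cystathionine and then cysteine. CDO1 oxidises cysteine to cysteine sulfinic acid, which CSAD decarboxylates to hypotaurine and GOT1, the cytosolic aspartate aminotransferase, can transaminate instead. ADO makes hypotaurine from cysteamine, and SLC6A6 carries taurine into the cell. Hepatocytes use taurine to conjugate bile acids. The metabolome panel of the study covered taurine, hypotaurine and cysteine sulfinic acid, and the transcripts of the enzymes around these metabolites are given here.

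Expression was measured as FPKM, that is, fragments scaled by transcript length and library size, and was summed over the transcripts of each gene name. FPKM summed to between 255292 and 513059 in the 40 libraries, and 9 of them stood apart from the other 31 on the first principal component (41.4% of the variance), a split defined from the data at the widest gap. These 9 were control replicate 5, PCB 126 10 nM replicates 3 and 5, PCB 126 1 µM replicates 1 and 5, glyphosate 10 µg/L replicate 5, glyphosate 0.1 g/L replicate 2, and Roundup replicates 4 and 5. The AhR target CYP1A1 was between 85.2 and 389 FPKM at 1 µM PCB 126 and between 0 and 7.69 in the control group. All 11 hepatocyte markers were above 0 in all libraries, from ALB (2922 to 17154 FPKM) to CYP3A4 (1.11 to 6.95) and APOA2 (0.948 to 69.5). The biliary markers KRT19 (97.9 to 407 FPKM) and SPP1 (13.3 to 63.3) and the mesenchymal marker LUM (18.1 to 168) were also above 0 in all libraries, while EPCAM was listed at 0 in 33 libraries, COL1A2 in 29, CFTR in 3 and VIM in 1 (highest VIM value 0.578).

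The promoters are shown for CTH, the gene with the largest difference among the 10, and for GOT1 and CDO1, which act on cysteine downstream of it. Each entry runs from 250 bases before to 50 bases after a RefSeq start site (GRCh38.p14) and is written 5′ to 3′ on the strand of the gene. Capitals mark GCGTG or its reverse complement CACGC, the core of the AhR binding element. The CTH entry lies at chr1:70411018-70411317 (plus strand), the GOT1 entry at chr10:99430575-99430874 (minus strand) and the CDO1 entry at chr5:115816610-115816909 (minus strand).
CTH: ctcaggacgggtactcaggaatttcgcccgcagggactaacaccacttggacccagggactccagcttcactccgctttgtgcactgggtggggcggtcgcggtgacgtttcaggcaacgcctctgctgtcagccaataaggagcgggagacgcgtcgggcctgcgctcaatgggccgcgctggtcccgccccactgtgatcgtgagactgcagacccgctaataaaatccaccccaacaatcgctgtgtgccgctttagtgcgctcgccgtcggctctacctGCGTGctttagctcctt
GOT1: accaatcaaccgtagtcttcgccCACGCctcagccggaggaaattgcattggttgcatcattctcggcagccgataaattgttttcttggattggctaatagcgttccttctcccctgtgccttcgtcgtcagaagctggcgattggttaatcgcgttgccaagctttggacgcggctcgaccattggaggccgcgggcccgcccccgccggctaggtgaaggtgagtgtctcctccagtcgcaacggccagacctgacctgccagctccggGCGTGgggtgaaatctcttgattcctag
CDO1: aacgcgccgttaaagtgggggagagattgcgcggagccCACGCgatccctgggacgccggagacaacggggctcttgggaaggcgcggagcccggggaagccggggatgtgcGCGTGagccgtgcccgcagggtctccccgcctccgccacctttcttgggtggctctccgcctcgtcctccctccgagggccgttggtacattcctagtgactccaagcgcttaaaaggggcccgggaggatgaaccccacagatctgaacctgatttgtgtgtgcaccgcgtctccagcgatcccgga

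CTH held 1 core, which began 34 bases into the transcribed part, and GOT1 and CDO1 held 2 each. RefSeq entries were found for 9 of the 10 genes (SLC6A6 had none), and 6 of the 9 held the core on either strand in at least 1 of their entries. The core was present in 36.5% of all 35116 promoter entries of this length. This is a share per entry, while a gene is counted here if any of its entries matched (the 9 genes have 11 entries). The count and the share are therefore unlike measures. The letters TGACNNNGC, the core of the antioxidant response element, were found in CBS alone among the 9 genes and in 13.3% of all entries. TGATGNAA, the core of the amino acid response element, was found in GOT1 alone and in 3.62% of all entries. These are matches of letters and not binding sites.

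In the control group GOT1 had the highest level of the 10 genes, 37.5 ± 8.34 FPKM (mean ± SD, n = 5), followed by MAT1A with 18.9 ± 10.2, SLC6A6 with 12.1 ± 3.17 and CBS with 10.5 ± 2.36. SLC6A6 and CBS overlapped in their values. ADO had 5.90 ± 1.57 FPKM, CDO1 4.59 ± 0.948 and CTH 3.30 ± 0.773. CSAD (1.61 ± 0.793), GNMT (0.707 ± 0.391) and BHMT (0.650 ± 0.197) were the lowest. Because FPKM are scaled by transcript length, these levels can be set beside each other, but they count only transcripts with the gene's own name. With the unnamed transcripts of its locus (described below), MAT1A was between 22.2 and 41.6 FPKM in the control libraries, so its order with GOT1 is not settled. CBS is given without its near-identical copy CBSL (described below), so its order with SLC6A6 is not settled either. CSAD, BHMT and GNMT did not reach the variance of FPKM above 1 that the test required in either table, so 7 of the 10 genes were tested.

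**Figure D1:**
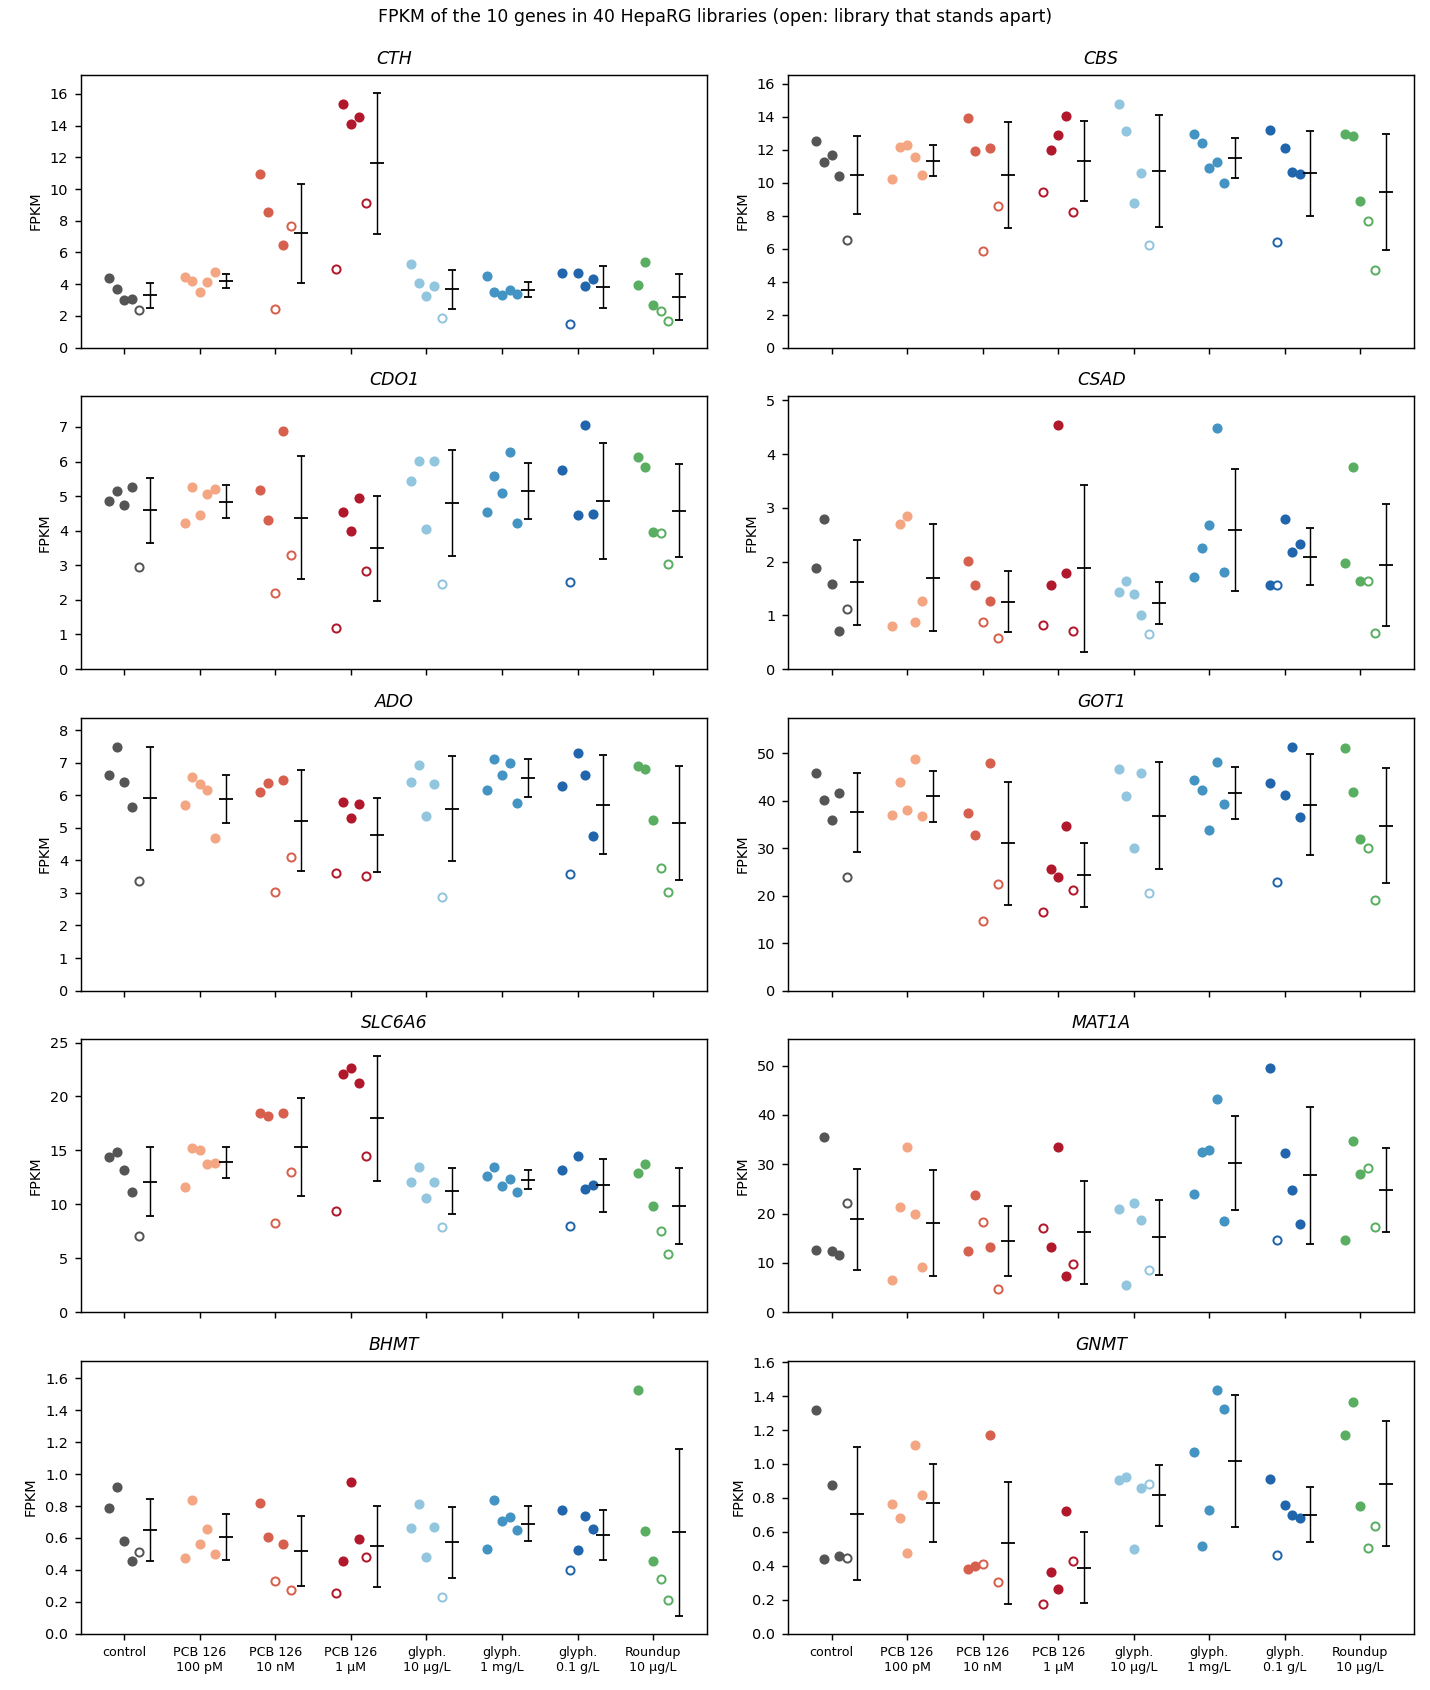
FPKM (y axis) of each of the 10 genes in the 8 groups (x axis). Each point is a library, open points are the 9 libraries that stand apart, and the black mark with bars is the mean ± SD of 5 libraries. CTH is between 4.95 and 15.4 FPKM at 1 µM PCB 126 and between 2.34 and 4.39 in the control group.

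CTH, cystathionine gamma-lyase, releases cysteine from cystathionine and was the only tested gene of the 10 that passed the threshold against control at any dose of PCB 126 in the unscaled fit. The gene lies at chr1:70411218-70439851 on the plus strand, and its 12-exon transcript ENST00000370938 carried 87.0% of its FPKM. The control libraries had 4.39, 3.68, 2.99, 3.09 and 2.34 FPKM. The libraries at 1 µM had 4.95, 15.4, 14.1, 14.5 and 9.11 FPKM. All 5 exposed libraries were above all 5 control libraries, and the pair of lowest ones at 1 µM, replicates 1 and 5, are the ones that stand apart. CTH rose by 1.48 on the log2(FPKM + 1) scale (SE 0.30, 95% interval 0.85 to 2.10, limma adjusted p = 0.00665), and the exact permutation test of 5 against 5 gave p = 0.00794, the smallest that 5 against 5 libraries allow. This was 1 called gene of the 7 tested, where 1.87% of all 9755 genes were called at 1 µM (0.646% higher and 1.22% lower). Values of the exposed libraries all above the control libraries were found in 0.707% of genes. CTH stood 77th of 9755 by p.

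At 10 nM, CTH had 10.9, 8.56, 2.46, 6.44 and 7.65 FPKM, so that 4 of 5 libraries were above the whole control range and replicate 3, which stands apart, was within it. The difference of 0.84 (SE 0.30) had p = 0.0104 before and 0.651 after adjustment in limma, and exact permutation p = 0.0397. None of the 7 genes was called at 10 nM, where 0.205% of all genes were. Without the libraries that stand apart, the CTH difference at 10 nM was 1.07 with adjusted p = 0.00458 in limma (0.675% of genes called), and with scaling of each library to the same 75th percentile it was 0.94 with adjusted p = 0.0336 (0.707% called). At 100 pM, CTH had 4.198 ± 0.457 FPKM (3.51 to 4.75, n = 5), overlapping the control group, and a difference of 0.29 (SE 0.30, limma adjusted p = 1). None of the 7 genes was called at 100 pM, and 0% of all genes were (1.19% at an unadjusted p under 0.05, 0% with 75th-percentile or quantile scaling). After 75th-percentile scaling over the 40 libraries, CTH in 100 pM replicates 1 to 5 was 5.09, 3.69, 3.13, 3.47 and 5.93. The control group lay between 2.57 and 3.73 on that scale. Scaled CYP1A1 in the same 100 pM libraries, as log2(FPKM + 1), was 6.37, 5.05, 1.95, 0.940 and 8.64. The part of this uneven CYP1A1 response in the CTH values was not tested.

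The levels of CTH ran in the order 1 µM (11.6 ± 4.47 FPKM), 10 nM (7.21 ± 3.12), 100 pM (4.198) and control (3.30). The neighbours 1 µM and 10 nM differed by 0.64 (SE 0.30, 95% interval 0.013 to 1.26), and their values overlapped. The exact permutation test gave p = 0.167, and limma gave p = 0.0459 before and 0.9997 after adjustment, so their order is not settled. Between these groups 0% of genes were called and 3.32% had an unadjusted p under 0.05. The F-test over the 4 PCB 126 groups called CTH (limma adjusted p = 0.0265) and none of the other 6, with 1.39% of genes called. In the fit on single transcripts, ENST00000370938 of CTH differed by 1.53 at 1 µM and did not pass the threshold (limma adjusted p = 0.0602, 117 of 21181 transcripts called).

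**Figure D2:**
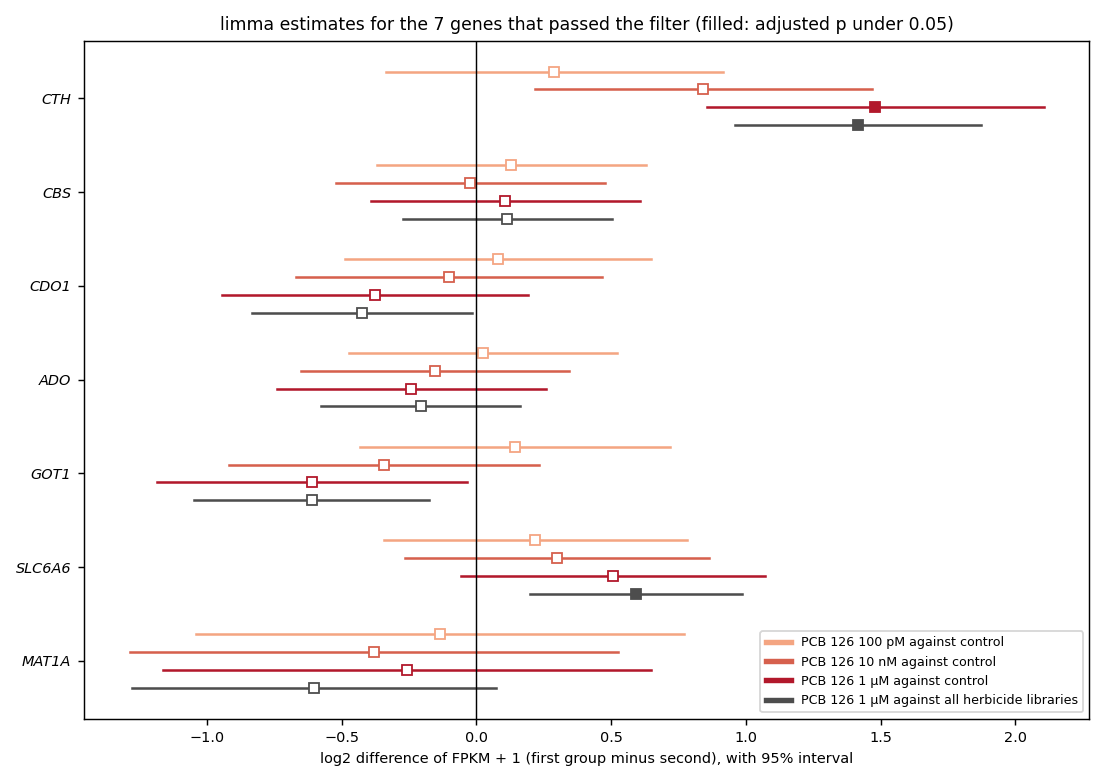
Log2 difference of FPKM + 1 (x axis, first group minus second) with its 95% interval for the 7 tested genes (rows), from limma. Filled squares passed an adjusted p of 0.05: CTH at 1 µM against control (1.48), and CTH (1.41) and SLC6A6 (0.59) at 1 µM against the herbicide libraries.

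CBS, cystathionine beta-synthase, makes the cystathionine that CTH splits. The control libraries had 12.6, 11.3, 11.7, 10.4 and 6.51 FPKM and the 1 µM libraries 9.41, 12.0, 12.9, 14.1 and 8.24, with overlapping ranges. The differences were 0.13 at 100 pM, -0.022 at 10 nM and 0.11 at 1 µM (95% interval at 1 µM -0.39 to 0.61, limma adjusted p = 0.843). Quantile normalization gave a difference of 0.32 at 1 µM that passed the threshold (limma adjusted p = 0.0200), in a fit that called 11.1% of all genes. Over the 17 alternatives the CBS difference at 1 µM ran from 0.083 to 0.82, and 1 of them passed. CBS lies at chr21:43053191-43076943, and the annotation also lists CBSL, a near-identical copy at chr21:6444869-6468040. Of the 75-base windows of the reference CBSL transcript ENST00000398168, 96.9% are also in the CBS transcript ENST00000398165, so reads can be divided between the copies. CBSL took 31.1% to 37.3% of the sum of both names in the 8 group means, and the sum was 16.5 ± 4.37 FPKM in the control group and 17.7 ± 5.38 at 1 µM. The share and the sum leave out unnamed transcripts. These had a mean of 3.21 FPKM over the 40 libraries at the CBSL locus and 0.207 at the CBS locus.

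CDO1, cysteine dioxygenase, is the entry to taurine synthesis from cysteine, and it lies at chr5:115804733-115816954. The control libraries had 4.86, 5.15, 4.73, 5.27 and 2.94 FPKM. The 1 µM libraries had 1.19, 4.53, 4.003, 4.95 and 2.83 FPKM, with replicate 1 below every other library of the study, replicate 5 just under the lowest control library and the other 3 within the control range. The difference at 1 µM was -0.38 (SE 0.28, limma adjusted p = 0.538), against a median of -0.26 over all genes tested, and it was 0.080 at 100 pM and -0.10 at 10 nM. CSAD, which makes hypotaurine, had control values of 1.87, 2.79, 1.58, 0.714 and 1.11 FPKM and values of 0.818, 1.56, 4.54, 1.78 and 0.702 at 1 µM. Its groups overlapped, and without a filter the limma difference was 0.052 (adjusted p = 1, exact permutation p = 0.921). CSAD was spread over 20 annotated transcripts, and the largest share of its FPKM, that of ENST00000267085, was 35.8%.

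ADO, the dioxygenase that forms hypotaurine from cysteamine, is a single-exon gene at chr10:62804857-62808483. It had 6.63, 7.49, 6.40, 5.63 and 3.36 FPKM in the control group and 3.61, 5.78, 5.31, 5.74 and 3.51 at 1 µM. The ranges overlapped, and the differences were 0.024, -0.16 and -0.24 from the lowest to the highest dose (limma adjusted p = 1, 0.865 and 0.642). GOT1, which takes cysteine sulfinic acid away from taurine synthesis, had 45.9, 40.3, 36.0, 41.5 and 24.04 FPKM in the control group. At 1 µM it had 16.5, 25.7, 23.997, 34.7 and 21.2 FPKM, all below the 4 upper control libraries, while the lowest control library, replicate 5, lay among them. The GOT1 difference was -0.61 at 1 µM (SE 0.28, 95% interval -1.18 to -0.035), with p = 0.0384 before and 0.332 after adjustment in limma and exact permutation p = 0.0317. It was 0.14 at 100 pM and -0.34 at 10 nM. After scaling to the same 75th percentile over the 40 libraries, GOT1 was 35.0 ± 4.197 in the control group (31.0 to 40.03) and 25.4 ± 3.04 at 1 µM (23.4 to 30.7). These ranges did not overlap, but the share of all genes without overlap on scaled values was not computed. The scaled limma fit did not pass the threshold for GOT1. Quantile normalization (-0.42, limma adjusted p = 0.0106) and array weights (-0.55, adjusted p = 0.0328, or 0.0356 gene by gene) did. Of all genes, quantile normalization called 11.1% and array weights 9.7% (9.17% gene by gene).

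SLC6A6, the sodium-dependent taurine transporter, lies at chr3:14402576-14489349 on the plus strand, and ENST00000622186 carried 83.7% of its FPKM. The control libraries had 14.4, 14.8, 13.2, 11.1 and 7.05 FPKM. The 10 nM libraries had 18.5, 18.2, 8.28, 18.5 and 13.02 FPKM, and the 1 µM libraries had 9.39, 22.1, 22.6, 21.3 and 14.5. In both groups 3 libraries were above the whole control range, and the remaining 2, which stand apart, were within it. The SLC6A6 difference was 0.22 at 100 pM, 0.30 at 10 nM and 0.51 at 1 µM (SE 0.27, 95% interval -0.056 to 1.07, limma adjusted p = 0.423, exact permutation p = 0.111). The same difference passed the threshold with 75th-percentile scaling (0.66, limma adjusted p = 0.00627), with quantile normalization (0.72, 5.27e-05), with a library-size term (0.80, 7.85e-05), with array weights (0.67, 0.00207, or 0.00267 gene by gene) and without the libraries that stand apart (0.68, 0.00469). These fits called more of all genes than the unscaled one, 6.07% with 75th-percentile scaling, 11.1% with quantile normalization, 8.44% with the library-size term, 9.7% with array weights (9.17% gene by gene) and 6.34% without the libraries that stand apart. On the scaled values, SLC6A6 was 11.2 ± 1.196 in the control group (9.34 to 12.2) and 18.5 ± 3.58 at 1 µM (13.4 to 22.3). These ranges did not overlap, but the share of all genes without overlap on scaled values was not computed. The mesenchymal markers summed to 38.2 to 85.3 FPKM in the control group and 48.5 to 187 at 1 µM. LUM made up most of that sum (mean 50.2 FPKM in the control group and 114.8 at 1 µM). The means of DCN (4.95 and 10.7) and COL1A1 (2.01 and 4.02) were also higher at 1 µM. Those of COL3A1 (12.5 and 0.576) and ACTA2 (2.37 and 0.553) were lower, and VIM and COL1A2 were near 0. The part of mesenchymal cells in the SLC6A6 values was not tested.

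**Figure D3:**
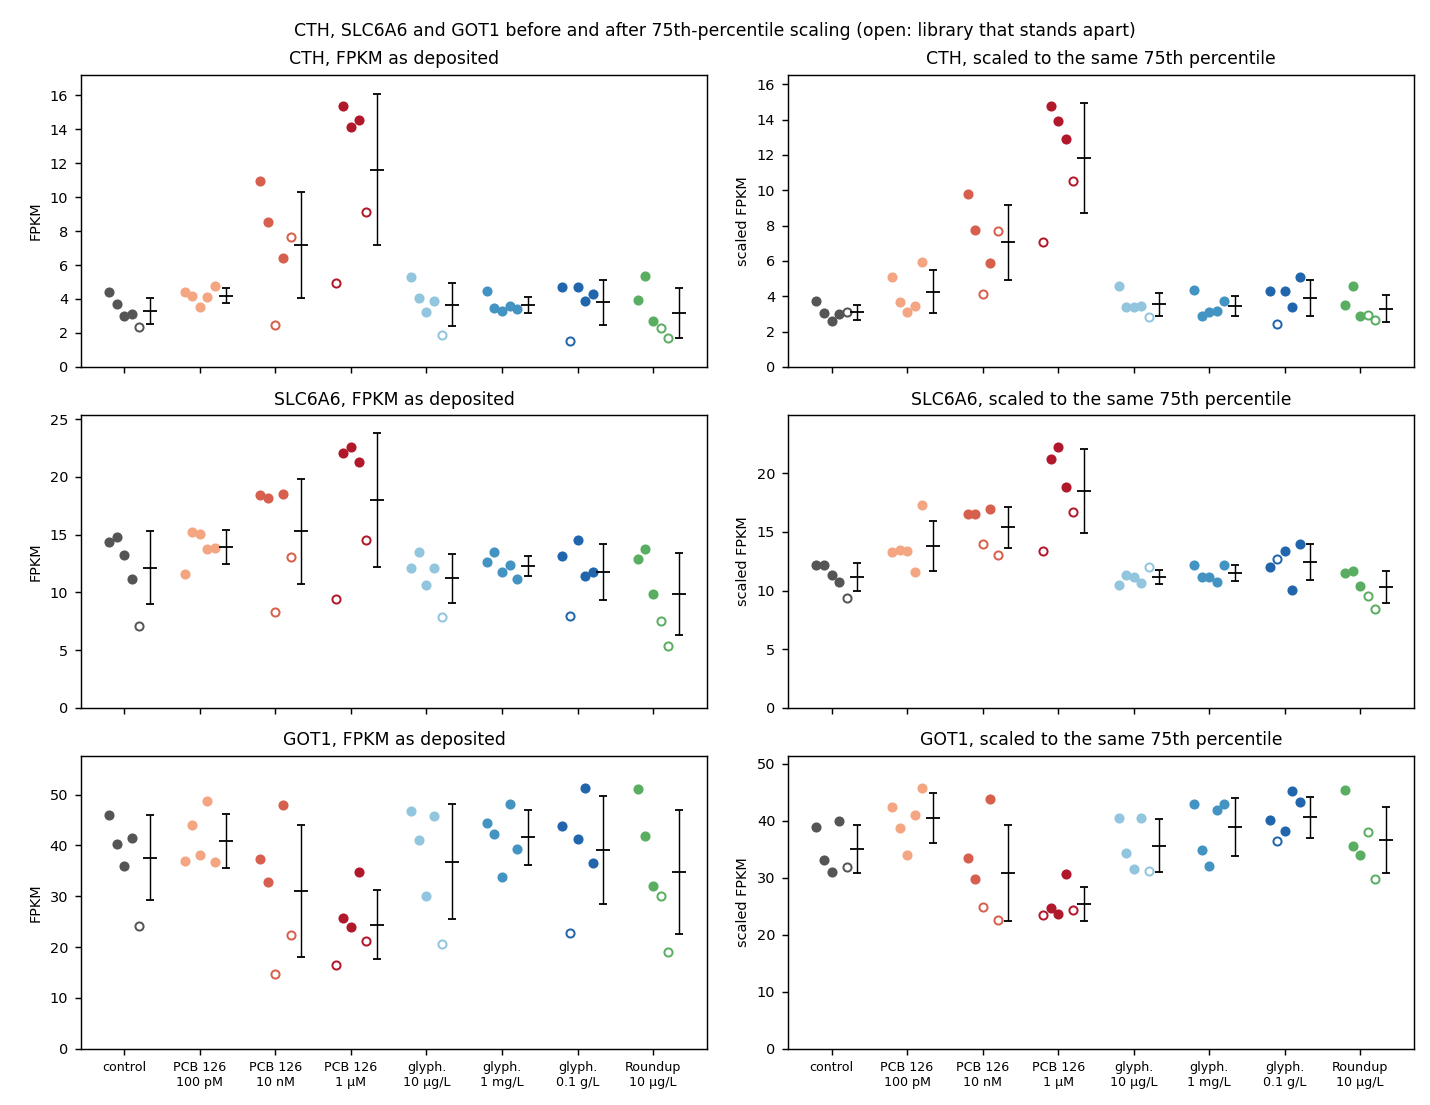
CTH, SLC6A6 and GOT1 (rows) as deposited FPKM (left) and after each library was scaled to the same 75th percentile of genes above 0 (right), in the 8 groups. Points are libraries (open: stand apart), and black marks are means ± SD of 5. After scaling, SLC6A6 at 1 µM PCB 126 is at 13.4 or more and in the control group at 12.2 or less. As deposited, these groups overlap for SLC6A6, and the share of all genes without overlap after scaling was not computed.

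MAT1A makes S-adenosylmethionine in hepatocytes, and its values spread widely within groups. The control libraries had 12.7, 35.4, 12.5, 11.6 and 22.2 FPKM and the 1 µM libraries 17.1, 13.2, 33.6, 7.42 and 9.68. The MAT1A differences were -0.13, -0.38 and -0.26 from the lowest to the highest dose of PCB 126 (limma adjusted p = 1, 0.865 and 0.785). The locus at chr10:80271820-80289684 also holds 2 assembled transcripts without a gene name, and their mean of 12.8 FPKM was divided unevenly between libraries. They were under 1 FPKM in 16 of the 40 libraries and above the named transcripts in 20. With them, the locus had 33.4 ± 7.03 FPKM in the control group and 33.2 ± 10.55 at 1 µM, and its coefficient of variation over the 40 libraries was 30.8% where that of the named transcripts was 51.6%.

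**Figure D4:**
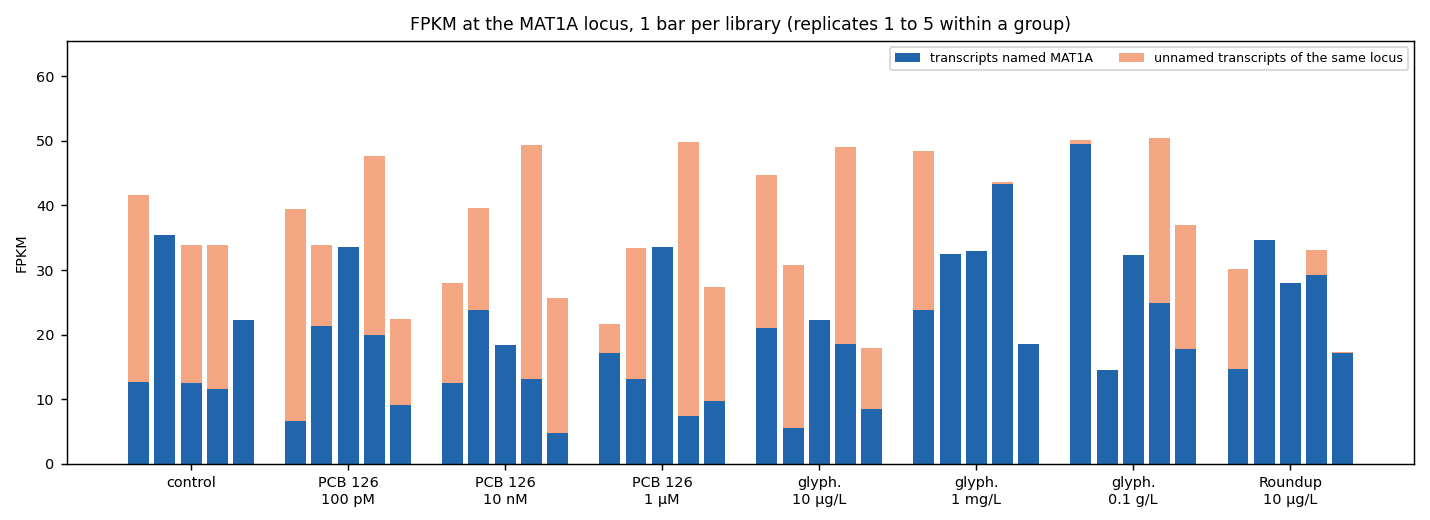
FPKM at the MAT1A locus (y axis) in each of the 40 libraries, grouped on the x axis, with transcripts named MAT1A in blue and unnamed transcripts of the same locus stacked in orange. The unnamed part is under 1 FPKM in 16 libraries, while the whole locus ranges from 14.6 to 50.4 FPKM.

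BHMT, the betaine-dependent methyltransferase, was low in all groups, with 0.454 to 0.920 FPKM in the control libraries and 0.257 to 0.950 at 1 µM. GNMT, glycine N-methyltransferase, had 1.32, 0.437, 0.879, 0.455 and 0.443 FPKM in the control group and 0.172, 0.363, 0.264, 0.723 and 0.426 at 1 µM, with overlapping ranges. Without a filter, the differences at 1 µM were -0.10 for BHMT and -0.28 for GNMT (limma adjusted p = 0.832 and 0.661). A fold of genes this low is understated on a scale with a pseudocount of 1.

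Other genes of the pathway were counted from lists chosen by name. At 1 µM against control, 0 of 15 tested genes of the methionine cycle and transsulfuration passed the threshold in either direction, nor did any of 8 of cysteine and sulfide breakdown, 9 of glutathione synthesis and cystine uptake, 8 of choline, betaine and glycine metabolism, or 9 of folate metabolism. At an unadjusted p under 0.05 these were 2, 1, 1, 2 and 3 genes, where 13.6% of all genes were. Among genes of taurine use and transport, 1 of 3 tested fell: BAAT, which conjugates bile acids with taurine or glycine. BAAT had 42.2, 50.8, 43.04, 45.1 and 29.9 FPKM in the control group and 6.39, 22.2, 18.9, 28.4 and 16.8 at 1 µM. Its exposed values were all below the control values, which was found in 1.64% of all genes. BAAT decreased by 1.26 on the log2 scale (SE 0.32, limma adjusted p = 0.0348). The median difference was -0.24 over the 7 tested genes of the 10 and -0.26 over all 9755 genes.

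With 75th-percentile scaling, which moved the median of all genes at 1 µM to -0.12, the count of called genes rose from 182 (63 higher, 119 lower) to 592 (247 higher, 345 lower). On that scale CHDH, which makes the precursor of betaine, rose by 1.15, KYAT1, a cysteine conjugate beta-lyase, by 0.92 and the amino acid transporter SLC1A5 by 0.57, while SLC1A4 (-0.49) and the thymidylate synthase gene TYMS (-0.56) fell. In counts, 1 of 8 genes of sulfide breakdown and 1 of 8 of choline metabolism rose, 1 rose and 1 fell of 9 of glutathione synthesis and cystine uptake, 2 of 9 of folate metabolism fell and 0 of 15 of the methionine cycle passed, where 6.07% of all genes were called. Of the AhR targets, 4 of 5 tested rose in the unscaled fit, namely CYP1A1 (6.61), CYP1A2 (6.16), TIPARP (3.21) and CYP1B1 (2.51). Of all genes, 0.646% were called higher and 1.22% lower in that fit. The variance filter can admit a gene through the groups where it is high, so the count of targets depends in part on the filter. It kept 5 of the 6 listed targets in the PCB 126 fit and 3 in the herbicide fit. Of 11 hepatocyte markers 3 fell, APOA2 (-3.20), TTR (-1.62) and FGB (-1.37), and the summed markers ranged from 14486 to 21119 FPKM in the control group and from 5692 to 14289 at 1 µM, without overlap. ALB made up most of that sum (mean 11206 FPKM in the control group and 5570 at 1 µM). The means of HNF4A (19.5 and 27.0), CYP3A4 (3.08 and 4.22) and ASGR1 (27.5 and 30.2) were higher at 1 µM without passing the threshold. Of the mesenchymal markers, COL3A1 fell (-3.07) among 5 tested, and 0 of 3 tested biliary markers passed the threshold. All 3 had an unadjusted p under 0.05 (median difference -0.87, smallest limma adjusted p = 0.0619). In FPKM as deposited, the summed biliary markers did not overlap (225 to 454 in the control group and 122 to 216 at 1 µM). Replicate 1 at 1 µM, with a sum of 213, had a 75th percentile of 2.93, against 3.15 to 5.05 in the control group. The separation may therefore not hold on scaled values, which were not summed. With 75th-percentile scaling 6 of the 11 hepatocyte markers and 1 of the 3 biliary markers fell, and of the mesenchymal markers 2 rose and 1 fell. Quantile normalization called 1 hepatocyte marker, HNF4A, higher (0.60) and 4 lower. Without the libraries that stand apart, 3 of 8 tested genes of glutathione synthesis and cystine uptake rose, 3 of 9 of folate metabolism fell, and 1 gene each of sulfide breakdown and of choline metabolism rose, where 2.48% of the 8298 genes tested rose and 3.86% fell. Fewer cells of a type and less RNA per cell cannot be told apart in these bulk libraries, and the part of either in the values of GOT1, CDO1, BAAT and CTH was not tested.

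None of the 7 tested genes was called for glyphosate at 10 µg/L, 1 mg/L or 0.1 g/L, for Roundup against control, or for Roundup against glyphosate at 10 µg/L, and 0% of the 9533 genes were called in each of these comparisons (0.881% to 1.73% at an unadjusted p under 0.05). CTH, which rose at 1 µM PCB 126, had 3.67 ± 1.248, 3.65 ± 0.476 and 3.81 ± 1.34 FPKM at the 3 rising doses of glyphosate and 3.20 ± 1.47 with Roundup (n = 5 each), all overlapping the control group. SLC6A6 had 11.2 ± 2.12, 12.3 ± 0.880, 11.8 ± 2.45 and 9.87 ± 3.53 FPKM in the same groups, and GOT1 36.8 ± 11.3, 41.6 ± 5.40, 39.2 ± 10.6 and 34.8 ± 12.2. Apart from MAT1A, the 30 differences of the tested genes lay between -0.30 (SLC6A6 with Roundup against control) and 0.17 (GOT1 at 1 mg/L glyphosate). The smallest unadjusted limma p among these 30 was 0.225 (exact permutation p of that difference 0.294). CSAD, GNMT and BHMT are not among the 30. With a filter on mean FPKM, CSAD was at -0.20, 0.46 and 0.28 at the 3 rising doses of glyphosate and 0.14 with Roundup. The difference of 0.46 did not pass (limma p = 0.0747 before and 0.980 after adjustment, exact permutation p = 0.143). GNMT was at 0.25 and BHMT at 0.041 at 1 mg/L.

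MAT1A had the widest differences in the herbicide groups, -0.33 at 10 µg/L, 0.73 at 1 mg/L and 0.54 at 0.1 g/L glyphosate, 0.44 with Roundup, and 0.77 between Roundup and glyphosate at 10 µg/L (limma p = 0.0467 before and 0.974 after adjustment, exact permutation p = 0.119). With the unnamed transcripts of its locus, the group means were 32.9, 35.2 and 36.9 FPKM for glyphosate and 28.6 for Roundup, and both Roundup differences turned to -0.23 and -0.13.

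The comparison of 1 µM PCB 126 with the 20 herbicide libraries sets no control library on either side, although the control libraries entered the filter and the estimate of the spread. CTH was higher by 1.41 (SE 0.23, limma adjusted p = 1.95e-05, exact permutation p = 5.65e-05), and SLC6A6 by 0.59 (SE 0.19, adjusted p = 0.0450, exact permutation p = 0.00373). These were 2 of 7 tested genes, where 9.37% of all genes were called (1.72% higher and 7.66% lower). The lowest CTH library at 1 µM, replicate 1, overlapped the highest herbicide libraries. The SLC6A6 call was lost without a filter (adjusted p = 0.0754), with only the groups compared (0.0675), and in 16 of the 25 fits without 1 library, among them those without 1 µM replicate 2 (0.109), 3 (0.117), 4 (0.108) or 5 (0.0648). GOT1 (-0.61, adjusted p = 0.0653, exact permutation p = 0.00576), CDO1 (-0.42, 0.185, exact permutation p = 0.0408), MAT1A (-0.60, 0.255), ADO (-0.21, 0.496) and CBS (0.11, 0.745) did not pass in limma. GOT1 passed with a replicate block (adjusted p = 0.0178, 14.7% of genes called), with 75th-percentile scaling (0.000125, 32.1% called) and without the libraries that stand apart (0.0112, 12.1% called). CDO1 passed with 75th-percentile scaling alone (-0.40, limma adjusted p = 0.00889). CBS passed with quantile normalization (0.30, limma adjusted p = 0.000582, 28.1% called) and the library-size term (0.36, 0.000524, 26.1% called). GNMT, which the variance filter leaves out, was at -0.41 with a filter on mean FPKM (8.71% of genes called, limma adjusted p = 0.0469, exact permutation p = 0.00096) and had adjusted p = 0.0537 without a filter.

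The gene most like CTH over the 40 libraries, after 75th-percentile scaling, was the AhR target TIPARP (Pearson r = 0.947 on the log2 scale), followed by PARD6B (0.943) and CYB561A3 (0.942), among 9260 genes searched. The libraries share treatments, and r with TIPARP was 0.964 over the 15 PCB 126 libraries and 0.522 over the other 25. SLC6A6 was most like SH3BP4 (0.932), MCCC1 (0.931) and LUM (0.901), and SDC1 (0.918) and FAM96A (0.916) were among the 3 most like GOT1. CDO1 was most like APOB (0.921), HSD17B11 (0.897) and HMGCS1 (0.896), ADO most like DHX9 (0.897), PRPS1 (0.895) and ZC3H15 (0.891), and CBS most like EIF6 (0.873), TALDO1 (0.868) and CKAP4 (0.867). The values were lower for GNMT, led by the fibrinogen genes FGG (0.714) and FGB (0.712) and LRG1 (0.707), for BHMT, led by KLHL2 (0.707), JAGN1 (0.678) and SBF2 (0.668), and for CSAD, led by AC018638.5 (0.693), CHD6 (0.685) and TMEM63A (0.677). MAT1A was lowest, with NELL2 (0.565), SNORD116-14 (0.565) and SYNE2 (0.547). These correlations describe these libraries, which share treatments and library-wide differences.

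**Figure D5:**
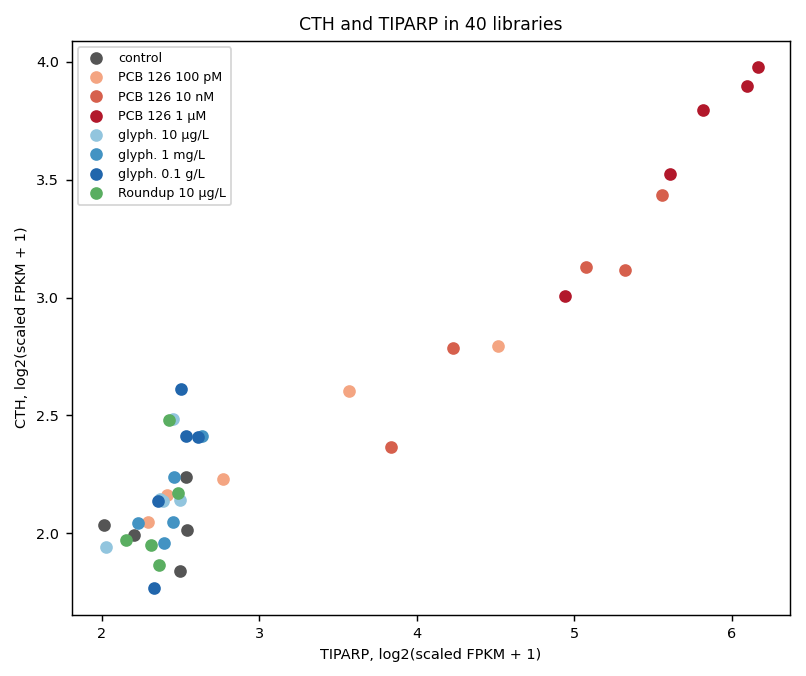
CTH (y axis) against TIPARP (x axis), both as log2(FPKM + 1) after 75th-percentile scaling, with 1 point per library (n = 40) coloured by group. The 25 control, glyphosate and Roundup libraries lie at the lower left and the 1 µM PCB 126 libraries at the upper right (Pearson r = 0.947 over all, 0.522 over the 25).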

How the data were processed

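Total RNA of HepaRG cells was depleted of ribosomal RNA and sequenced as 75-base read pairs. The authors mapped the reads to GRCh38 by HISAT2, used StringTie for assembly and quantification, and deposited FPKM of 234960 transcripts in a PCB 126 table and a herbicide table, which share the 5 control libraries. The unit list reads columns that hold values below 0 (4 and 6 values in all) as a score, although the authors call them FPKM too. All columns were treated as FPKM here, and the values below 0 were set to 0. The files give FPKM and no read count per library, so no counting interval was computed, and precision rests on 5 libraries per group.

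FPKM were summed per gene name, kept where their variance exceeded 1 over the libraries of the fit, and tested as log2(FPKM + 1), which understates folds of low genes. All groups of a table entered 1 fit without covariates (limma 3.58.1, R 4.3.3), with Benjamini-Hochberg adjustment over 9755 (PCB 126), 9533 (herbicide) or 9732 (all 40 libraries) genes and a threshold of 0.05. In addition, 100 exact permutation tests (2-sided) were made of the 10 genes, of which 8 gave p under 0.05 before adjustment. The fit was also run on simulated data with independent noise per gene and library. Those data lack the library-wide differences seen here, so they do not show how these differences affect the calls. The genes, lists and tests were chosen with earlier results of these data known. Named were the 10 genes, CBSL, CYP1A1, up to 6 called genes of each list, and the 3 genes most like each of the 10. The 5 further genes named on the scaled values and the single markers were chosen after their values were seen. Some genes that these rules name are not reported here. Alternatives varied the pseudocount, filter, scaling, model, weights, samples, feature and block, and left out each library.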

Additional observations from a re-analysis of the deposited data

Results flagged for a closer look

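Of the 80 groups of 5 values (10 genes in 8 groups), 6 held a highest or lowest FPKM far from the other 4, by Dixon's criterion at 0.71 of the range, where chance flags about 1 in 20 groups. Values of 2 of the 6 came from libraries that stand apart: CDO1 in control replicate 5 (2.94 FPKM, next 4.73) and CTH in glyphosate 0.1 g/L replicate 2 (1.498, next 3.85). The other 4 were CSAD in PCB 126 1 µM replicate 3 (4.54, next 1.78), CTH in glyphosate 1 mg/L replicate 1 (4.48, next 3.61), GNMT in PCB 126 10 nM replicate 4 (1.17, next 0.412) and GNMT in glyphosate 10 µg/L replicate 3 (0.499, next 0.861).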

How the results depend on the processing

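CTH at 1 µM against control kept its direction and its call in all 17 alternatives (1.48 to 1.89, limma adjusted p 2.78e-07 to 0.0370) and without each library (1.36 to 1.73, adjusted p 0.000855 to 0.0238). The number of the 10 genes called at 1 µM was 1. It became 2 with 75th-percentile scaling, the library-size term, the 31 libraries that do not stand apart, or those 31 after scaling, 3 with array weights, 3 with gene-by-gene weights and 4 with quantile normalization. At 10 nM it went from 0 to 1 with 75th-percentile scaling, both kinds of array weights, 31 libraries or 31 scaled libraries, and to 2 with quantile normalization or the library-size term. Between 1 µM and 10 nM it went from 0 to 1 with array weights, which gene-by-gene weights did not do. Across the 4 PCB 126 groups it went from 1 to 0 with a pseudocount of 0.1, without a filter or with the most abundant transcript, to 2 with 75th-percentile scaling, the library-size term, 31 libraries or 31 scaled libraries, and to 3 with quantile normalization or either kind of array weights. Without 1 library it ranged from 0 to 1, being 0 without control replicate 3 or 4 or 1 µM replicate 2, 3 or 4. Against the herbicide libraries it went from 2 to 1 without a filter or with only the groups compared, to 4 with 75th-percentile scaling, quantile normalization or the library-size term, and ranged from 1 to 3 without 1 library. With the planned array weights it went from 0 to 3 for Roundup against control, 6 for Roundup against glyphosate and 7 across the herbicide groups. These weights stopped before convergence (7 of 12 such fits, highest weight 30.4), and with gene-by-gene weights these 3 counts were 0. The share of all genes called with array weights is not given for these 3 comparisons or for 1 µM against 10 nM. These counts are therefore not read as results about the 10 genes. The cause of the other changes was not tested. All genes called at 1 µM numbered 182 (123 to 1085 in the alternatives, 118 to 365 without 1 library), at 10 nM 20 (14 to 239, and 15 to 35) and against the herbicide libraries 912 (754 to 3128, and 414 to 1295). Across the 4 PCB 126 groups 136 of 9755 genes were called, 483 with 75th-percentile scaling and 714 with quantile normalization.

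Each of the differences that changed sign had an adjusted p above the threshold before and after. For PCB 126 100 pM against control, ADO (0.024) became -0.029 with quantile normalization, -0.032 with the library-size term, -0.044 with array weights and -0.045 with gene-by-gene weights, and CDO1 (0.080) became -0.012 with array weights and -0.014 with gene-by-gene weights. MAT1A (-0.13) became 0.39 with array weights, 0.067 with the whole locus, 0.12 with 31 scaled libraries and 0.36 with gene-by-gene weights, and CBS (0.13) became -0.016 with 31 libraries. GOT1 (0.14) became -0.0044 with 31 libraries. For PCB 126 10 nM against control, CBS (-0.022) became 0.11 with 75th-percentile scaling, 0.17 with quantile normalization, 0.14 with the library-size term, 0.093 with array weights, 0.61 with the most abundant transcript, 0.013 with CBSL added, 0.13 with 31 libraries, 0.18 with 31 scaled libraries and 0.10 with gene-by-gene weights, and CDO1 (-0.10) became 0.0055 with 75th-percentile scaling, 0.10 with quantile normalization and 0.11 with the library-size term. ADO (-0.16) became 0.044 with quantile normalization and 0.018 with the library-size term, and MAT1A (-0.38) became 0.21 with array weights, 0.029 with 31 scaled libraries and 0.20 with gene-by-gene weights. For PCB 126 1 µM against control, ADO (-0.24) became 0.0017 with quantile normalization, and MAT1A (-0.26) became 0.019 with 31 scaled libraries. For PCB 126 1 µM against 10 nM, MAT1A (0.12) became -0.23 with array weights, -0.039 with the most abundant transcript, -0.066 with 31 libraries, -0.010 with 31 scaled libraries and -0.21 with gene-by-gene weights. For glyphosate 10 µg/L against control, GOT1 (-0.057) became 0.024 with 75th-percentile scaling, 0.088 with array weights, 0.037 with 31 scaled libraries and 0.078 with gene-by-gene weights, and SLC6A6 (-0.079) became 0.00061 with 75th-percentile scaling. MAT1A (-0.33) became 0.0044 with array weights and 0.017 with gene-by-gene weights, and CTH (0.092) became -0.22 with the most abundant transcript. CBS (0.0049) became -0.093 with CBSL added and -0.058 with the whole locus. For glyphosate 1 mg/L against control, CTH (0.13) became -0.012 with quantile normalization and -0.0073 with the library-size term, and SLC6A6 (0.056) became -0.077 with quantile normalization, -0.073 with the library-size term, -0.069 with array weights, -0.11 with 31 libraries, -0.016 with 31 scaled libraries and -0.067 with gene-by-gene weights. For glyphosate 0.1 g/L against control, ADO (-0.038) became 0.11 with 75th-percentile scaling and 0.0016 with array weights, and SLC6A6 (-0.023) became 0.14 with 75th-percentile scaling, 0.0055 with quantile normalization and 0.074 with 31 scaled libraries. CTH (0.12) became -0.40 with the most abundant transcript, and CBS (0.0047) became -0.013 with CBSL added and -0.060 with the whole locus. For Roundup 10 µg/L against control, CBS (-0.19) became 0.00025 with 75th-percentile scaling, 0.37 with the most abundant transcript and 0.078 with 31 scaled libraries, and CDO1 (-0.016) became 0.15 with 75th-percentile scaling, 0.14 with quantile normalization and 0.13 with the library-size term. CTH (-0.083) became 0.063 with 75th-percentile scaling, 0.050 with quantile normalization and 0.077 with the library-size term, and GOT1 (-0.15) became 0.055 with 75th-percentile scaling, 0.048 with quantile normalization, 0.029 with the library-size term, 0.0038 with 31 libraries and 0.093 with 31 scaled libraries. MAT1A (0.44) became -0.23 with the whole locus. For Roundup 10 µg/L against glyphosate 10 µg/L, CDO1 (-0.039) became 0.069 with 75th-percentile scaling, 0.092 with quantile normalization and 0.083 with the library-size term, and GOT1 (-0.091) became 0.031 with 75th-percentile scaling, 0.057 with quantile normalization, 0.056 with the library-size term, 0.020 with 31 libraries and 0.056 with 31 scaled libraries. ADO (-0.11) became 0.022 with quantile normalization and 0.027 with the library-size term, and MAT1A (0.77) became -0.13 with the whole locus. SLC6A6 (-0.22) became 0.0012 with 31 libraries and 0.034 with 31 scaled libraries, and CBS (-0.19) became 0.0093 with 31 scaled libraries. For PCB 126 1 µM against all herbicide libraries, ADO (-0.21) became 0.014 with quantile normalization and 0.036 with the library-size term, and MAT1A (-0.60) became 0.024 with the whole locus. Without 1 library, ADO ranged from -0.13 to 0.11 (PCB 126 100 pM against control), -0.29 to 0.033 (Roundup 10 µg/L against glyphosate 10 µg/L), -0.19 to 0.091 (glyphosate 0.1 g/L against control) and -0.23 to 0.10 (glyphosate 10 µg/L against control). CBS ranged from -0.043 to 0.24 (PCB 126 1 µM against 10 nM), -0.039 to 0.20 (PCB 126 1 µM against control), -0.17 to 0.15 (PCB 126 10 nM against control), -0.016 to 0.20 (PCB 126 100 pM against control), -0.33 to 0.013 (Roundup 10 µg/L against control), -0.35 to 0.0078 (Roundup 10 µg/L against glyphosate 10 µg/L), -0.14 to 0.16 (glyphosate 0.1 g/L against control) and -0.14 to 0.16 (glyphosate 10 µg/L against control). CDO1 ranged from -0.26 to 0.067 (PCB 126 10 nM against control), -0.042 to 0.13 (PCB 126 100 pM against control), -0.14 to 0.092 (Roundup 10 µg/L against control), -0.21 to 0.068 (Roundup 10 µg/L against glyphosate 10 µg/L), -0.093 to 0.21 (glyphosate 0.1 g/L against control) and -0.10 to 0.20 (glyphosate 10 µg/L against control). CTH ranged from -0.25 to 0.061 (Roundup 10 µg/L against control) and -0.027 to 0.26 (glyphosate 10 µg/L against control). GOT1 ranged from -0.0044 to 0.22 (PCB 126 100 pM against control), -0.30 to 0.043 (Roundup 10 µg/L against control), -0.28 to 0.10 (Roundup 10 µg/L against glyphosate 10 µg/L), -0.10 to 0.22 (glyphosate 0.1 g/L against control) and -0.20 to 0.13 (glyphosate 10 µg/L against control). MAT1A ranged from -0.20 to 0.33 (PCB 126 1 µM against 10 nM) and -0.40 to 0.15 (PCB 126 100 pM against control). SLC6A6 ranged from -0.19 to 0.10 (glyphosate 0.1 g/L against control), -0.11 to 0.13 (glyphosate 1 mg/L against control) and -0.24 to 0.031 (glyphosate 10 µg/L against control).

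The labels pair no libraries by number. Each of 5 runs of library numbers holds 1 library of every group, and the deviations of libraries of the same run had r from -0.166 to 0.365 (median 0.050 over 140 pairs, against -0.020 over 560 pairs of different runs). Since the labels do not say what a run is, no pairing was assumed in the main fit. With the replicate block, 1 of the genes was called at 1 µM and 3 against the herbicide libraries, where GOT1 was added (limma adjusted p = 0.0178), and all genes called numbered 357 at 1 µM (182 without it) and 37 at 10 nM (20 without it). In 25 of 40 libraries the closest library of another group was of the same run, where 7 of the 35 libraries of other groups are of that run, a hint from the data that runs share differences. The fits of the whole locus, of 31 libraries (scaled or not) and with gene-by-gene weights were chosen after seeing the data. The files give no read count per library, so no counting limit was computed for CSAD, BHMT and GNMT, which lie near 0.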
